A study of Mus musculus with 24 samples.

Results

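The cortex of GFP-PR28 heterozygous mice was compared with the cortex of control mice at 6 months of age. The libraries were chosen by tissue and genotype from their labels, which gave 6 of the 24 libraries of the series, 3 per genotype and 1 per mouse. Heterozygous mice were GFP-PR28 flox/+; Thy1-Cre on the C57BL/6 strain. The construct sits at the Rosa26 locus and is silent until Cre acts, and the Thy1-Cre line supplies Cre in neurons. Control mice were C57BL/6 mice that carry the GFP-PR28 allele without Thy1-Cre, so both groups share the floxed allele and differ in Cre together with expression. An effect of Cre alone therefore cannot be told apart from that of the construct. Each library was whole cortical tissue, with neurons that express the construct and other cells that do not mixed together. The values are raw read counts for 46078 genes, given here as CPM, counts per library scaled by TMM-normalized library sizes so that libraries can be compared.

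Poly-PR is a chain of proline and arginine repeats, made by translation of the expanded repeat in C9orf72 that is found in frontotemporal dementia and amyotrophic lateral sclerosis. Such arginine-rich dipeptide repeats are known to gather in the nucleolus and to hinder translation. Among the responses a stressed neuron can make, the integrated stress response slows translation in general and favours that of ATF4, a transcription factor that switches on genes of amino acid uptake, amino acid synthesis and tRNA charging. A separate layer of control lies in chromatin, where methyltransferases of histone H3 lysine 4 mark active promoters and enhancers.

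Total counts were 18490468, 21058595 and 20922825 in control libraries 1 to 3 and 18109791, 17915259 and 17084506 in heterozygous libraries 1 to 3. The summed level of 20 genes of cortical excitatory neurons was 5901, 7471 and 6825 CPM in control libraries and 6361, 7149 and 6112 CPM in heterozygous libraries. No other tissue was set beside these sums, so they describe the libraries and do not test the cortex label. Camk2a, a kinase of the postsynaptic density, made up the greater part of these sums, and every gene of the list had counts. Slc17a7, the vesicular glutamate transporter of cortical neurons, had a log2 fold change of −0.04 between heterozygous and control mice (adjusted p = 0.932). The groups overlapped for it.

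Control library 1 stood apart from the other 5 libraries. The log2 deviations of its genes from the mean of the 6 libraries had a standard deviation of 0.484, against 0.265 and 0.266 in control libraries 2 and 3 and 0.281, 0.253 and 0.284 in heterozygous libraries 1 to 3. Across genes, which are not independent replicates, its deviation fell with transcript length (Spearman's rho −0.481), while rho was 0.199 and 0.182 in the other control libraries and 0.310, 0.0730 and 0.173 in heterozygous libraries. Its median deviation was 0.35 on the log2 scale in the 3333 genes with the shortest transcripts (median 1.13 kb) and −0.28 in the 3333 with the longest (median 6.63 kb). With all 6 libraries the median log2 fold change accordingly ran from −0.15 in the shortest group to 0.11 in the longest, and without control library 1 it was 0.00 and 0.01. The counts of calls and the medians of gene lists are therefore given with and without that library.

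**Figure D1:**
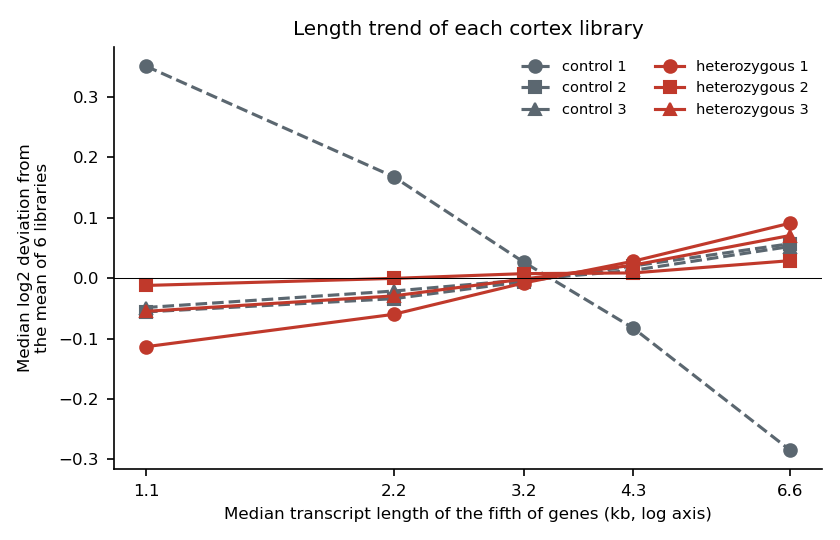
Median log2 deviation of genes from the mean of the 6 cortex libraries (vertical axis) against the median transcript length of 5 groups of genes of about equal size in kb (horizontal log axis), with 1 line per library, dashed for control and solid for heterozygous mice. Control library 1 runs from 0.35 to −0.28, and the other 5 libraries stay close to 0.

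In the cortex, 6 genes rose in heterozygous mice when all 6 libraries were used. They were Lmtk3, Mbd6, Fev, 2410018L13Rik, Peg10 and Kmt2d, each more than 2-fold higher. The calls came from the quasi-likelihood test of edgeR, with Benjamini-Hochberg adjustment across 16744 tested genes. A gene was called when its log2 fold change was beyond 0.2 and its adjusted p under 0.05, and the 6 make up 0.0358% of the genes tested. The same test called 0 genes lower (0%), although 1929 genes had an unadjusted p under 0.05. DESeq2 called 92 genes higher and 46 lower on the same libraries, and limma voom with sample quality weights called 120 higher and 58 lower. The weight that voom gave to control library 1 was 0.193, against 1.24 to 1.53 for the others. Without control library 1, edgeR called 93 genes higher (0.543% of 17117 tested) and 41 lower (0.24%), and these 93 included the 6 genes above. An unadjusted p under 0.05 was found in 2123 of those 17117 genes, beside 1929 of 16744 with all 6 libraries. Counts of list members at an unadjusted p, given below, stand beside these numbers. In 82 of the 93 and 36 of the 41 the groups of 3 did not overlap, against 20.4% of all genes tested in the 6 libraries. The calls already used the other 5 libraries, so this separation is largely set by the call and lends it no support. Of all 17117 genes, 5178 (30.3%) had no overlap between the 2 control and 3 heterozygous libraries, and 3474 of these had none with control library 1 either. Leaving out control library 3 instead gave 38 genes higher and 1 lower. Leaving out control library 2 gave 8 and 1. Leaving out heterozygous library 2 or heterozygous library 3 from the 6 gave 0 calls in either direction with edgeR, with an unadjusted p under 0.05 in 1312 and 950 genes.

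Lmtk3 encodes a neuronal protein kinase of the lemur family (ENSMUSG00000062044, chr7:45783738-45804144, plus strand, GRCm38). It stood at 307, 330 and 321 CPM in control libraries 1 to 3 and at 731, 891 and 905 CPM in heterozygous libraries 1 to 3. The groups were far apart, and control library 1 lay beside the other controls. The means were 319 ± 11.6 and 842 ± 97.0 CPM (SD, n = 3 per group), a 2.64-fold rise (SE 0.12 on the log2 scale, adjusted p = 0.0068). The log2 fold change was 1.38 ± 0.10 (SE, adjusted p = 9.08e-06) when control library 1 was left out. Sult2b1 overlaps Lmtk3 on the other strand, and since the strand setting of the counting is not given in the sources used here, its reads are uncertain.

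Mbd6, a methyl-CpG-binding domain protein and partner of the polycomb deubiquitinase (ENSMUSG00000025409, chr10:127281956-127289018, minus strand), had 53.1, 63.4 and 66.2 CPM in control libraries and 145, 177 and 188 CPM in heterozygous libraries. Every heterozygous value was more than 2-fold above every control value. Its log2 fold change was 1.48 ± 0.14 (SE, adjusted p = 0.0068) and, without control library 1, 1.39 ± 0.11 (adjusted p = 2.74e-05). Gm20492 overlaps it on the other strand, which leaves its reads uncertain in the same way. Kmt2d, the methyltransferase of histone H3 lysine 4 at enhancers (ENSMUSG00000048154, chr15:98831669-98871204, minus strand), had 97.2, 155 and 171 CPM in control libraries and 396, 475 and 540 CPM in heterozygous libraries. Control library 1 was the lowest of the 6, and Kmt2d has a long transcript (19.8 kb), of the kind that was low in that library. The change was 1.74 ± 0.21 with it (adjusted p = 0.026) and 1.53 ± 0.12 without it (adjusted p = 0.00017).

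Peg10, an imprinted gene derived from a retrotransposon (ENSMUSG00000092035, chr6:4747306-4760517, plus strand), had 16.8, 22.8 and 22.1 CPM in control libraries and 48.0, 57.6 and 66.8 CPM in heterozygous libraries. The groups did not overlap, and the change was 1.48 ± 0.16 (adjusted p = 0.0173) or, without control library 1, 1.36 ± 0.13 (adjusted p = 0.000267). The long noncoding RNA 2410018L13Rik (ENSMUSG00000073164, chr12:22953997-23010284, minus strand) was at 1.74, 2.05 and 1.34 CPM in control libraries and at 8.17, 14.3 and 12.7 CPM in heterozygous libraries. Heterozygous library 1 was the lowest of its group and still far above the controls. The change was 2.77 ± 0.27 (adjusted p = 0.0068) and 2.79 ± 0.28 without control library 1 (adjusted p = 0.00069). Gm48046 and Gm49686 overlap it on the same strand, so that its reads are uncertain. Fev, a transcription factor known from serotonergic neurons (ENSMUSG00000055197, chr1:74881509-74885419, minus strand), had 3, 2 and 2 counts in control libraries and 37, 42 and 37 counts in heterozygous libraries. It was thus near the detection limit in every control mouse and low but evenly present in every heterozygous mouse. By summed counts the ratio was 18.1, with a 95% interval for counting error from 8.53 to 46.1 (adjusted p = 0.0068), and without control library 1 it was 22.2, from 8.43 to 82.8 (adjusted p = 0.00069). Among the 9 serotonergic markers searched, 6 were tested, and Fev was the member called (16.7%, beside 0.0358% of all genes in the 6 libraries and 0.543% without control library 1), while the median log2 fold change of the 6 was −0.05 with and −0.04 without control library 1.

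**Figure D2:**
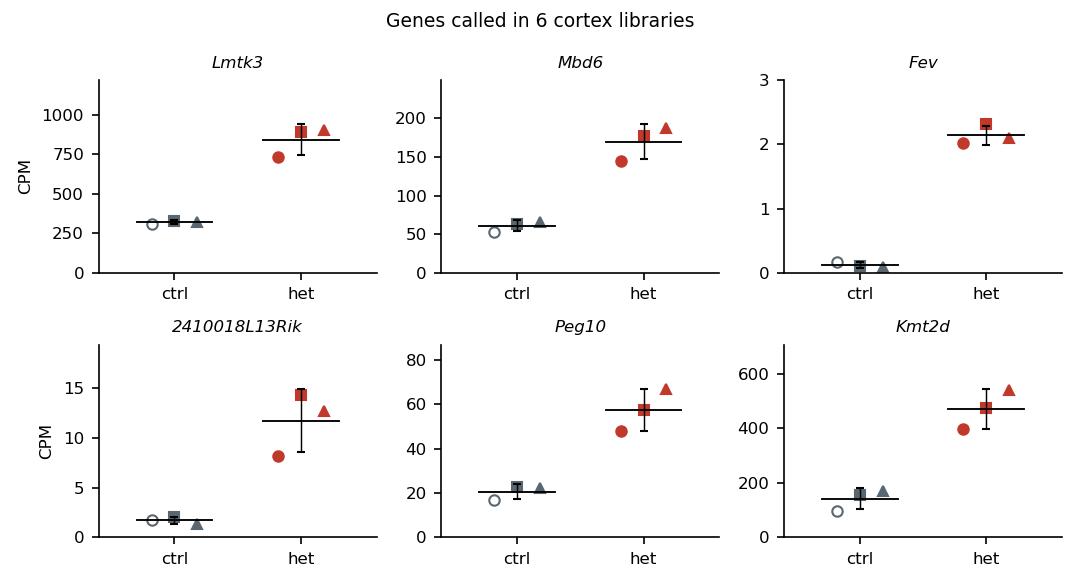
Level of the 6 genes called with all cortex libraries, in CPM (vertical axis), in control (ctrl) and heterozygous (het) mice, with 1 point per library, the shape for the replicate number, an open circle for control library 1, a horizontal line for the mean of 3 and bars for ± SD. In each of the 6 genes the 3 heterozygous libraries lie above the 3 control libraries.

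In heterozygous library 1, the levels of Lmtk3, Mbd6, Kmt2d, Peg10, 2410018L13Rik and Fev were each the lowest of their group. The 6 calls needed both of the other heterozygous libraries. Without heterozygous library 2 the adjusted p of these genes ranged from 0.0929 (Lmtk3) to 0.321 (Kmt2d), and without heterozygous library 3 from 0.117 (Lmtk3) to 0.348 (Kmt2d). Without heterozygous library 1, Kmt2d alone of the 6 lost its call (adjusted p = 0.0828). Over all alternatives run on the 6 libraries, the log2 fold change of Lmtk3 stayed between 1.20 and 1.49 and that of Mbd6 between 1.38 and 1.58. Once control library 1 was out, leaving out any further library kept the 6 genes called, with adjusted p of at most 0.0294 (2410018L13Rik without heterozygous library 3).

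A list of 43 genes of the ATF4 and amino acid response had 41 tested members. Of these, 35 had a log2 fold change above 0 in the 6 libraries, with a median of 0.29, and 39 did without control library 1, with a median of 0.33. Among all tested genes, 50.6% and 51.9% were above 0, with medians of 0.00 and 0.01. With 6 libraries 0 of the 41 passed edgeR's test, and 24 had an unadjusted p under 0.05, beside 1929 of all 16744 genes. DESeq2 called 8 members higher, beside 92 of all genes, and voom 11, beside 120. Without control library 1, 9 rose and 0 fell with edgeR, which is 22.0% of the members beside 0.543% of all genes. The 9 were the transcription factors Atf4 and Atf5, the cationic amino acid transporters Slc7a1 and Slc7a3, the biosynthetic enzymes Asns and Psph, the mitochondrial folate enzyme Mthfd2, the cysteinyl-tRNA synthetase Cars and the secreted glycoprotein Stc2. Fgf21 and Gdf15 had too few counts to be tested.

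Atf4 itself had 172, 128 and 112 CPM in control libraries and 165, 201 and 214 CPM in heterozygous libraries. Control library 1 lay above heterozygous library 1, so that the groups overlapped unless it was left out. The log2 fold change was 0.49 ± 0.17 (SE, adjusted p = 0.373) in the 6 libraries and 0.69 ± 0.11 (adjusted p = 0.012) without control library 1. That call was lost without control library 3 (0.0576), heterozygous library 2 (0.0897) or heterozygous library 3 (0.0987). Atf5, a related factor that ATF4 induces, had 19.9, 13.9 and 15 CPM in control libraries and 25, 33 and 31.2 CPM in heterozygous libraries. These groups did not overlap, and again control library 1 was the highest control. Its change was 0.87 ± 0.17 (adjusted p = 0.195) and 1.05 ± 0.13 (adjusted p = 0.00195), a call lost without heterozygous library 3 (0.0617). Il4i1 and Nup62 overlap Atf5 on the other strand, which leaves its reads uncertain.

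Slc7a3, which carries arginine, lysine and ornithine into cells, had 7.67, 3.94 and 4.89 CPM in control libraries and 16.9, 29.5 and 31.6 CPM in heterozygous libraries. It had the largest log2 fold change of the list, and heterozygous library 1 was well below the other heterozygous libraries. The change was 2.25 ± 0.29 (adjusted p = 0.0509) in 6 libraries, just outside the threshold, and 2.56 ± 0.32 (adjusted p = 0.0352) without control library 1. With a second library left out it passed without heterozygous library 1, but not without control library 2 (0.23), control library 3 (0.168), heterozygous library 2 (0.0864) or heterozygous library 3 (0.0787). Slc7a1, the more widely expressed transporter of the same amino acids, had 35.7, 49.5 and 48.1 CPM in control libraries and 72.7, 69.7 and 68.0 CPM in heterozygous libraries. The heterozygous libraries were close together and all above the controls, with a change of 0.66 ± 0.14 (adjusted p = 0.221) and 0.53 ± 0.09 (adjusted p = 0.0107). Its call was lost without control library 3 (0.0766), heterozygous library 2 (0.0673) or heterozygous library 3 (0.0787).

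Mthfd2 had 5.66, 4.72 and 6.81 CPM in control libraries and 12.0, 14.3 and 15.8 CPM in heterozygous libraries, without overlap. Here control library 1 lay between the other controls, and the change was 1.29 ± 0.19 in both fits, with an adjusted p of 0.0941 in the 6 libraries and 0.00516 without control library 1. Stc2 had 1.29, 1.95 and 1.49 CPM in control libraries and 3.89, 7.04 and 6.62 CPM in heterozygous libraries. Its groups did not overlap, and its change was 1.88 ± 0.29 (adjusted p = 0.116) with and 1.77 ± 0.29 (adjusted p = 0.0107) without control library 1. Asns, which makes asparagine, had 113, 84.8 and 80.5 CPM in control libraries and 105, 142 and 130 CPM in heterozygous libraries, and Psph, the last step of serine synthesis, had 18.1, 11.3 and 12.6 CPM against 16.2, 19.7 and 21.7 CPM. For both, control library 1 was above heterozygous library 1, and the changes were 0.44 (adjusted p = 0.388) and 0.46 (0.424) with it and 0.61 (0.0297) and 0.69 (0.0396) without it. Cars, at 51.4, 48.5 and 44.9 CPM against 62.7, 72.2 and 75.6 CPM, changed by 0.54 (adjusted p = 0.236) and 0.59 (adjusted p = 0.0109). All 5 of these calls were lost without heterozygous library 2 or heterozygous library 3, with adjusted p of 0.0673 and 0.0835 for Mthfd2, 0.0826 and 0.12 for Stc2, 0.093 and 0.274 for Asns, 0.141 and 0.241 for Psph and 0.0754 and 0.116 for Cars. Without control library 3 those of Stc2 (0.0562), Asns (0.123), Psph (0.0895) and Cars (0.0805) were lost, and without control library 2 those of Asns (0.063) and Psph (0.207). Psph overlaps Cct6a, Cars overlaps Gm15580 on the other strand and Mthfd2 overlaps Gm43890 on its own strand, so these counts are uncertain.

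**Figure D3:**
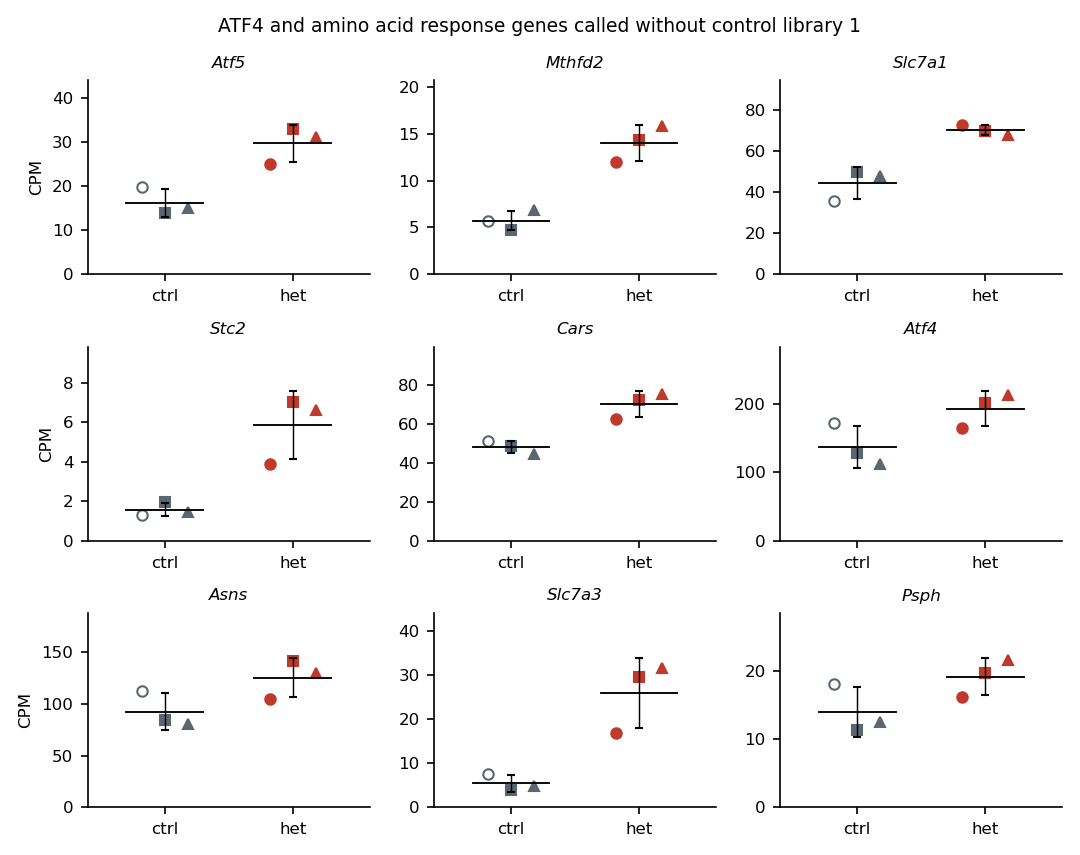
Level of the 9 members of the ATF4 and amino acid response list that were called without control library 1, in CPM (vertical axis), in control (ctrl) and heterozygous (het) mice, with 1 point per library, an open circle for control library 1, a line for the mean of 3 and bars for ± SD. In Atf4, Asns and Psph the open circle lies above the lowest heterozygous library, and in the other 6 genes the groups do not overlap.

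Of the aminoacyl-tRNA synthetases other than Cars, Aars, Yars, Eprs and Nars had log2 fold changes of 0.33, 0.35, 0.30 and 0.28 without control library 1 and did not pass the test. Chac1, a glutathione-degrading enzyme, was at 0.98 (adjusted p = 0.11) and Pycr1, a proline-synthesis enzyme, at 1.15 (adjusted p = 0.051). Trib3, a pseudokinase induced by ATF4, was at 1.36 (adjusted p = 0.138). Ddit3, which encodes the factor CHOP, had 31.2, 21.4 and 18.7 CPM in control libraries and 24.7, 25.7 and 27.8 CPM in heterozygous libraries. Its groups overlapped through control library 1, and its change was 0.14 (adjusted p = 0.779) with and 0.38 (adjusted p = 0.168) without that library. The members below 0 were Nupr1 at −0.65 and Ddit4 at −0.40, and neither passed the test. The count of 9 depended on single libraries. Leaving out a second library gave 7 members without control library 2, 2 without control library 3, 12 without heterozygous library 1, 1 without heterozygous library 2 and 0 without heterozygous library 3. The median of the list stayed between 0.27 and 0.36 in these fits, and with an offset for the length and GC content of transcripts it was 0.22 in the 6 libraries and 0.28 without control library 1.

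ATF4 binds composite elements with the core TGATGCAA, which reads TTGCATCA on the other strand. RefSeq promoter windows of GRCm38.p6, from 250 bases before to 50 after a gene's start, were found for 34 of the 43 list members. The motif was present, on either strand, in 10 of these 34 (29.4%), against 1.03% of all 27025 genes with a window and 0.663% of the 11766 tested genes with one. Pieces of 30 bases around it are shown for 3 members whose levels are described here, with the motif in capitals, since they show which letters were matched. They are written 5′ to 3′ on the strand of the gene. The piece of Chac1 is chr2:119351038-119351067 on the plus strand and that of Pycr1 is chr11:120643833-120643862 on the minus strand. For Asns, chr6:7693214-7693243 on the minus strand, the capitals mark TGATGAAA, a match to TGATGNAA.
Chac1: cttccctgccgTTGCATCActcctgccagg
Pycr1: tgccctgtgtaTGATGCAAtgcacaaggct
Asns: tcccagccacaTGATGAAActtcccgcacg
A search with any base at the sixth position (TGATGNAA, chosen after the first result was seen) matched 13 of the 34 members (38.2%), 4.51% of all genes with a window and 2.71% of the tested genes with one. Of the 9 members called without control library 1, 7 had a window. TGATGCAA was in 0 of these 7, and TGATGNAA was in Asns. Of the 93 genes called higher, 70 had a window, with TGATGCAA in 0 and TGATGNAA in 4 (5.71%). Of the 41 called lower, 28 had a window, with TGATGCAA in 0 and TGATGNAA in 2 (7.14%). A match describes letters in a window and is no evidence of binding, and a window without a match says nothing of elements elsewhere in a gene. The share in the list depends on which genes were put on it, chosen for the ATF4 response, and uses no cortex counts.

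Kmt2d is on a list of 30 enzymes and cofactors that modify H3 lysine 4 and lysine 27. Mbd6 was placed on the same list, although the deubiquitinase it partners acts on histone H2A. All 30 were tested. In the 6 libraries edgeR called 2 higher, Kmt2d and Mbd6, and 0 lower (6.67%, beside 0.0358% of all genes). DESeq2 and voom each called 5 higher and 0 lower there, beside 92 and 120 genes higher in all, and DESeq2 called 5 and 0 without control library 1. Without that library, edgeR called 5 higher and 0 lower (16.7%, beside 0.543% of all genes), or 4 of the 29 other than Mbd6. Besides Kmt2d and Mbd6 they were the H3 lysine 4 methyltransferases Setd1b and Kmt2b and the H3 lysine 27 demethylase Kdm6b. Setd1b had 35.9, 52.7 and 53.3 CPM in control libraries and 82.0, 82.7 and 76.0 CPM in heterozygous libraries. The heterozygous values lay above all controls, with a log2 fold change of 0.76 ± 0.15 (adjusted p = 0.197) in the 6 libraries and 0.60 ± 0.08 (adjusted p = 0.00387) without control library 1. Kdm6b had 23.5, 37.7 and 31.2 CPM in control libraries and 50.9, 55.9 and 53.7 CPM in heterozygous libraries. Its groups did not overlap either, and its change was 0.79 ± 0.16 (adjusted p = 0.209) and 0.64 ± 0.10 (adjusted p = 0.0107). Kmt2b had 65.1, 91.9 and 95.2 CPM against 121, 152 and 155 CPM, without overlap, and changed by 0.76 ± 0.16 (adjusted p = 0.236) and 0.61 ± 0.10 (adjusted p = 0.0142). A second library left out ended the calls of Kdm6b without control library 3 (0.101), heterozygous library 2 (0.0739) or heterozygous library 3 (0.0987) and of Kmt2b without control library 2 (0.0527), heterozygous library 2 (0.093) or heterozygous library 3 (0.12).

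In each of these 3 genes control library 1 was the lowest library. Their transcripts are long, as in much of the list, whose median length is 6.88 kb against 3.17 kb for all tested genes. The list's median was 0.21 with control library 1, 0.08 without it, and 0.08 in the 6 libraries with an offset for length and GC content. That offset ended the call of Kmt2b in the fit without control library 1 (adjusted p = 0.139). With a second library left out, 4 members were called without control library 2 or 3, 5 without heterozygous library 1 and 3 without heterozygous library 2 or 3. The paralogues Kmt2a and Kmt2c, at 0.11 and 0.10, the demethylase Kdm6a at −0.01 and the polycomb methyltransferase Ezh2 at 0.06 did not pass the test without control library 1. Setd1b and Kdm6b overlap noncoding genes on the other strand and are uncertain in that respect. Hist1h1c, a linker histone gene that is not on the list and was named for its small p, had 16.9, 8.28 and 9.54 CPM in control libraries and 20.4, 23.1 and 23.6 CPM in heterozygous libraries. Control library 1 lay close to the heterozygous libraries, and the change was 0.95 (adjusted p = 0.291) with it and 1.33 ± 0.14 (adjusted p = 0.000267) without it.

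EdgeR called fewer genes lower than higher without control library 1, 41 against 93, but the balance depended on the processing. An offset for length and GC gave 198 lower and 112 higher, and DESeq2 gave 120 and 133. The 41 genes called lower had log2 fold changes from −1.97 to −0.36 with a median of −0.49, and 3 of them were more than 2-fold lower. The 93 called higher ran from 0.37 to 4.39 with a median of 0.82, and 35 were more than 2-fold higher. Dio2, the deiodinase that activates thyroid hormone in glia (ENSMUSG00000007682, chr12:90724552-90738438, minus strand), had 70.1, 90.0 and 83.4 CPM in control libraries and 54.4, 49.4 and 48.5 CPM in heterozygous libraries. All heterozygous libraries lay below the controls, of which control library 1 was the lowest. The change was −0.68 ± 0.12 (adjusted p = 0.146) in the 6 libraries and −0.77 ± 0.09 (adjusted p = 0.00069) without control library 1. Gm26512 overlaps it on the other strand, which leaves it uncertain. Pde1a, a calmodulin-dependent phosphodiesterase, had 216, 198 and 226 CPM in control libraries and 136, 143 and 123 CPM in heterozygous libraries. Here the 3 controls were alike, and the change was −0.67 ± 0.11 (adjusted p = 0.116) and −0.66 ± 0.09 (adjusted p = 0.00326).

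Other genes lower without control library 1 were Apln, which encodes the peptide apelin (−0.82, adjusted p = 0.0059, and −0.79, 0.144, in the 6 libraries), the BMP antagonist Chrdl1 (−0.87, adjusted p = 0.00516, and −0.75, 0.236), the olfactory receptor gene Olfr78 (−1.97, adjusted p = 0.00344, and −1.86, 0.0719) and Gm765 (−1.80, adjusted p = 0.00529, and −1.43, 0.344). In the 6 libraries the groups overlapped for Gm765. Olfr78 shares its strand with the overlapping gene Olfr560 and belongs to a family of similar receptors, so its counts are uncertain. Without heterozygous library 2 and without heterozygous library 3 the calls of Apln (0.0722 and 0.0815), Chrdl1 (0.0614 and 0.0787) and Gm765 (0.0673 and 0.0815) were lost, and without heterozygous library 2 that of Olfr78 (0.06). The count of 41 became 64 without control library 2, 30 without control library 3, 22 without heterozygous library 1, 6 without heterozygous library 2 and 4 without heterozygous library 3, and the count of 93 became 82, 71, 71, 13 and 8 in the same order. Of those genes only 15, 15, 17, 4 and 4 were among the 41, and 34, 41, 58, 13 and 8 among the 93.

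Genes of exocytosis and transmitter release were mostly below 0 without control library 1. Of 63 tested members, 49 were below 0, with a median log2 fold change of −0.10, 4 fell (6.35%, beside 0.24% of all genes) and 1 rose (1.59%, beside 0.543%). With all 6 libraries 35 were below 0, with a median of −0.03 that an offset for length and GC moved to −0.15. EdgeR called 0 of the members there in either direction, with an unadjusted p under 0.05 in 22, beside 1929 of all 16744 genes. DESeq2 called 4 lower and 2 higher, beside 46 and 92 of all genes, and voom 4 lower and 1 higher, beside 58 and 120. Stx1a, a plasma membrane SNARE, had 456, 365 and 363 CPM in control libraries and 262, 291 and 224 CPM in heterozygous libraries. All heterozygous values were lower, and the change was −0.61 ± 0.14 (adjusted p = 0.247) and, without control library 1, −0.49 ± 0.10 (adjusted p = 0.0341). Rims1, a scaffold of the active zone, had 214, 318 and 279 CPM in control libraries and 213, 212 and 198 CPM in heterozygous libraries. Control library 1 was all but level with the heterozygous libraries, and the change was −0.38 ± 0.14 (adjusted p = 0.4) with it and −0.52 ± 0.08 (adjusted p = 0.0107) without it. The call of Stx1a was lost whichever further library was left out (adjusted p from 0.0658 to 0.12) and that of Rims1 without control library 2 (0.0863), heterozygous library 2 (0.0701) or heterozygous library 3 (0.0815). Sytl2, a Rab27 effector, was also called lower (−0.51, and −0.58 with an adjusted p of 0.176 in the 6 libraries). It lost its call without control library 2 (0.104), heterozygous library 2 (0.0658) or heterozygous library 3 (0.0976). Syn3, a synapsin, had 3.19, 8.33 and 8.59 CPM against 14.2, 15.4 and 15 CPM. It was the member called higher, by 0.82 ± 0.14 (adjusted p = 0.0133, and 1.14 with 0.304 in the 6 libraries), with Timp3 inside it on the other strand, and lost the call without control library 2 (0.0659), control library 3 (0.0623), heterozygous library 2 (0.0754) or heterozygous library 3 (0.108). The members called lower numbered 0 without control library 2, 2 without control library 3, 2 without heterozygous library 1 and 0 without heterozygous library 2 or heterozygous library 3, and the member called higher was called only without heterozygous library 1.

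Short transcripts of energy metabolism and the ribosome lay below 0 with control library 1 and less so without it. For 85 nuclear genes of the respiratory chain and ATP synthase the summed level was 14060 CPM in control library 1, 9148 and 9191 CPM in the other controls and 7770, 8467 and 7843 CPM in heterozygous libraries. Their median log2 fold change was −0.45 in the 6 libraries, where 81 of 82 tested members were below 0, and −0.17 without control library 1, where 77 were. For 83 cytosolic ribosomal protein genes the sums were 10604 CPM in control library 1, 5684 and 6026 CPM in the other controls and 4992, 5491 and 5357 CPM in heterozygous libraries. Their medians were −0.49 and −0.14. The median transcript lengths of these lists were 1.09 and 1.06 kb, in the range where control library 1 was high. An offset for length and GC moved the 6-library medians only to −0.39 and −0.38.

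Without control library 1, 4 respiratory members fell (4.88%, beside 0.24% of all genes) and 0 rose, and 2 ribosomal members fell (2.47%) and 0 rose. In that fit DESeq2 called 9 respiratory members lower and 0 higher, and 3 ribosomal members lower and 1 higher, beside 120 lower and 133 higher of all genes. With all 6 libraries edgeR called 0 of either list, with an unadjusted p under 0.05 in 45 and 39, beside 1929 of all 16744 genes. DESeq2 called 4 and 2 lower, beside 46 of all genes, and voom 3 and 1, beside 58. Uqcr11, a subunit of complex III, had 105, 53.3 and 49.4 CPM in control libraries and 28.0, 31.5 and 29.2 CPM in heterozygous libraries. Control library 1 was about 2-fold above the other controls, and the heterozygous libraries were below all of them. The change was −1.23 ± 0.26 (adjusted p = 0.233) with and −0.79 ± 0.10 (adjusted p = 0.00137) without control library 1. The other members called were Uqcrh (−0.49), Ndufa1 (−0.64), Cox6c (−0.41), Rpl21 (−0.71) and Rpl37 (−0.48), which with control library 1 were at −0.81, −0.94, −0.79, −1.08 and −0.90 and not called. The calls of Ndufa1 (adjusted p from 0.0673 to 0.179), Cox6c (0.0653 to 0.141) and Rpl37 (0.0739 to 0.179) were lost whichever further library was left out. Those of Uqcrh (0.0739 to 0.273) and Rpl21 (0.0864 to 0.224) were lost without control library 2 or heterozygous library 1, 2 or 3. The annotation names 15 pseudogenes after Rpl21, whose counts are uncertain where such copies shared reads. A second library left out changed the respiratory count to 1 without control library 2, 2 without control library 3 and 1 without heterozygous library 1, 2 or 3, and the ribosomal count to 1 without control library 3 and 0 without each of the others. The 13 mitochondrially encoded messenger RNAs had medians of −0.08 with and 0.02 without control library 1, and edgeR called 0 of them in either fit, with 0 at an unadjusted p under 0.05 and 0 called by DESeq2.

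**Figure D4:**
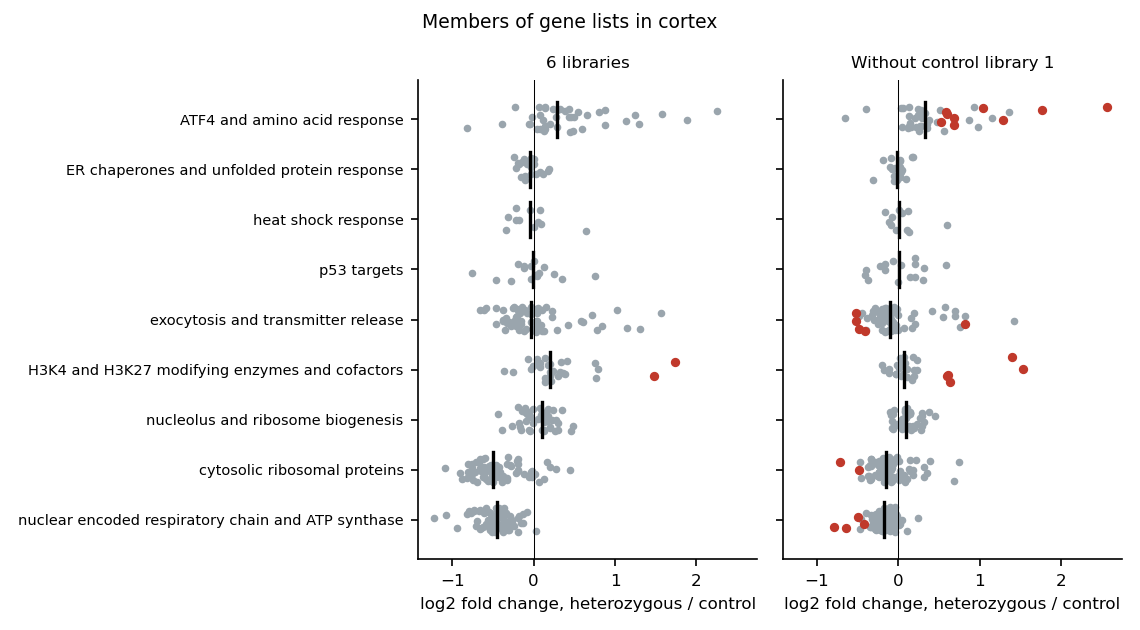
Log2 fold change between heterozygous and control cortex (horizontal axis) of each tested member of 9 gene lists, with 6 libraries (left) and without control library 1 (right), where grey points are members not called, red points are members called and black bars are list medians. The ATF4 list has its median at 0.29 and 0.33, and the ribosomal and respiratory lists move from −0.49 and −0.45 to −0.14 and −0.17.

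Of 22 chaperones and other genes of the unfolded protein response in the endoplasmic reticulum, 7 were above 0 in the 6 libraries and 10 without control library 1, with medians of −0.04 and −0.02. Hspa5, the chaperone BiP, had 219, 167 and 184 CPM in control libraries and 222, 155 and 155 CPM in heterozygous libraries. Those groups overlapped (log2 fold change 0.02 without control library 1, adjusted p = 0.98). Xbp1, the factor of the IRE1 arm, was at 0.05 (adjusted p = 0.92). The 11 heat shock genes had medians of −0.05 and 0.02 and the 16 p53 targets of −0.01 and 0.01. The p53 target Cdkn1a had 15.5, 12.2 and 14.1 CPM against 14.9, 14.7 and 15.9 CPM, which overlap. Of these 3 lists edgeR and DESeq2 called 0 members in either fit. An unadjusted p under 0.05 was found without control library 1 in 4, 1 and 5 of them, beside 2123 of all 17117 genes.

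Of 42 genes of the nucleolus and ribosome biogenesis, 24 were above 0 in the 6 libraries and 33 without control library 1, with a median of 0.10 in both. EdgeR and DESeq2 called 0 of them, and 6 had an unadjusted p under 0.05 without control library 1. The nucleolar proteins Npm1 and Ncl each had a change of 0.05 without control library 1 (adjusted p = 0.875 and 0.86), and their groups overlapped. Of 25 DNA replication genes 18 and 19 were above 0, with medians of 0.19 and 0.32. Without control library 1, Mcm6, a subunit of the replicative helicase, and Asf1b, a histone chaperone, rose by 1.10 (adjusted p = 0.0297) and 1.85 (adjusted p = 0.0345), which is 8% of the list beside 0.543% of all genes. With it the changes were 1.01 (0.236) and 1.86 (0.146). Mcm6 had 7.45, 5.06 and 7.34 CPM in control libraries and 10.4, 15.8 and 13.7 CPM in heterozygous libraries. Asf1b, a gene of low counts, had 0.616, 0.536 and 0.719 CPM against 1.75, 2.15 and 2.94 CPM. In neither gene did the groups overlap. Both calls were lost without control library 2 (adjusted p = 0.115 and 0.134), heterozygous library 2 (0.122 and 0.115) or heterozygous library 3 (0.203 and 0.209), and that of Asf1b also without control library 3 (0.0726).

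Immediate early genes varied between mice of the same genotype. Arc had 456, 415 and 176 CPM in control libraries and 347, 72.7 and 106 CPM in heterozygous libraries, and Fos had 41.8, 26.7 and 8.49 CPM against 35.8, 11.8 and 13.1 CPM. In both, control library 3 and heterozygous libraries 2 and 3 were low, and the groups overlapped. The 20 genes had medians of 0.00 in the 6 libraries and 0.20 without control library 1. The second median turned to −0.18 without control library 3 and −0.29 without heterozygous library 1, and became 0.42 without control library 2 and 0.32 without heterozygous library 3. In the fit without control library 1 alone, Fosb was called higher (0.78, adjusted p = 0.0379, 5% of the list beside 0.543% of all genes, and 0.52 with 0.423 in the 6 libraries). That call was lost whichever further library was left out (0.0673 to 0.183). Of 16 tested genes of neuronal injury and regeneration, Sox11, a factor of axon growth, was called without control library 1 (6.25% of the list, beside 0.543% of all genes). It had 8.79, 8.52 and 9.64 CPM against 15.4, 14.1 and 17.8 CPM, without overlap, and a change of 0.81 ± 0.15 (adjusted p = 0.17) with and 0.80 ± 0.15 (adjusted p = 0.0255) without it. Its call was lost whichever further library was left out, with adjusted p from 0.0550 to 0.174. The median of the list was 0.08 with and 0.17 without control library 1. Of 25 neuropeptide genes, with medians of −0.13 and 0.05, 1 fell without control library 1, Apln (4%, beside 0.24% of all genes), while DESeq2 called 2 lower in that fit. In the 6 libraries edgeR called 0 of these 25, with an unadjusted p under 0.05 in 10. DESeq2 called 2 higher and 2 lower there, and voom 1 lower.

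All 24 markers of striatal projection neurons had a log2 fold change above 0 in both fits, with a median of 1.45 in the 6 libraries and 1.21 without control library 1. Leaving out control library 2 as well moved it to 0.72, and control library 3 to 1.83. Their summed level was 1011, 1178 and 1861 CPM in control libraries and 3486, 2301 and 2411 CPM in heterozygous libraries, and without Ppp1r1b, the most abundant by CPM, it was 849, 1037 and 1584 CPM against 2989, 1952 and 2092 CPM. Control library 3 was the highest control and heterozygous library 1 the highest of all. The groups did not overlap, and all 24 genes had counts. In the 6 libraries edgeR called 0 of the 24, with an unadjusted p under 0.05 in 21, beside 1929 of all 16744 genes. DESeq2 called 8 higher, beside 92 of all genes, and voom 2, beside 120. Without control library 1, edgeR called 1 (4.17%, beside 0.543% of all genes) and DESeq2 3, beside 133 of all genes. Meis2, a homeodomain factor, had 71.0, 74.3 and 79.8 CPM against 136, 109 and 119 CPM and rose by 0.66 ± 0.10 without control library 1 (adjusted p = 0.00533), though not when heterozygous library 3 was also left out (0.0787). Penk, which encodes proenkephalin, had 46.8, 39.3 and 92.1 CPM against 278, 176 and 192 CPM, with a change of 1.86 ± 0.31 (adjusted p = 0.125) and 1.72 ± 0.53 (adjusted p = 0.386). The receptor Adora2a had 3.58, 5.02 and 22.6 CPM against 55.1, 32.8 and 33.8 CPM. Its change was 1.95 ± 0.63 (adjusted p = 0.375) in the 6 libraries and 1.56 ± 0.80 (adjusted p = 0.575) without control library 1. Over the alternatives run on the 6 libraries it ranged from 1.56 to 3.23. In both Penk and Adora2a the spread within the control group was wide.

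Chat, the enzyme that makes acetylcholine, had 0.392, 0.730 and 1.34 CPM in control libraries and 4.38, 2.59 and 3.62 CPM in heterozygous libraries. The groups did not overlap, with a change of 2.07 ± 0.40 (adjusted p = 0.19) in the 6 libraries and 1.77 ± 0.34 (adjusted p = 0.0291) without control library 1, which was lost without control library 2 (0.121), heterozygous library 1 (0.101), 2 (0.0701) or 3 (0.177). Slc18a3 lies inside Chat on the same strand, so their reads are uncertain. Cholinergic markers other than Ache, the most abundant by CPM, summed to 2.91, 3.80 and 8.15 CPM against 17.5, 10.7 and 14.9 CPM. In the 6 libraries edgeR called 0 of the 7 tested cholinergic genes, with an unadjusted p under 0.05 in 5, DESeq2 called 2 and voom 1. EdgeR called 1 of 8 (12.5%, beside 0.543% of all genes) without control library 1. The medians of the cholinergic list were 1.56 in the 6 libraries and 1.44 without control library 1. The second ran from 0.82 without control library 2 to 2.06 without control library 3. Of 6 tested olfactory bulb markers, 5 and 6 were above 0, with a median of 0.51 in both fits, and the member called, Meis2, is also on the striatal list. More cells of a type in the tissue piece and more RNA per cell cannot be told apart in such libraries, and the part of the striatal and cholinergic genes in the other differences was not tested.

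All 14 microglial markers were below 0 in both fits, with medians of −0.31 and −0.17, and edgeR, DESeq2 and voom called 0 of them. In each fit 5 had an unadjusted p under 0.05, beside 1929 of all 16744 genes with 6 libraries and 2123 of 17117 without control library 1. The sums of the markers were 620, 507 and 550 CPM in control libraries and 469, 460 and 460 CPM in heterozygous libraries. The 12 astrocyte markers were also below 0 in both fits, with medians of −0.19 and −0.16 and sums of 5550, 5418 and 5597 CPM against 4634, 4715 and 4797 CPM, led by the glutamate transporter Slc1a2. Neither list's sums overlapped between the groups. Aldh1l1, a folate enzyme of astrocytes, had 88.7, 83.3 and 84.3 CPM against 66.9, 62.1 and 61.9 CPM and fell by 0.39 on the log2 scale without control library 1 (adjusted p = 0.0379, 8.33% of the list beside 0.24% of all genes), against a change of −0.42 (0.251) with it, a call lost whichever further library was left out (0.0575 to 0.176). Gfap, which rises in reactive astrocytes, had 128, 93.7 and 154 CPM against 114, 93.5 and 135 CPM, which overlap. The 12 oligodendrocyte markers had medians of −0.08 and −0.01, the second of which ran from −0.22 without control library 2 to 0.27 without control library 3. The 6 markers of their precursors had medians of −0.03 and −0.08 and the 12 of endothelial and mural cells 0.01 and −0.08. Of these 3 lists 0 members were called by edgeR or DESeq2, with an unadjusted p under 0.05 in 0, 1 and 1 of them. Meningeal fibroblast markers had medians of −0.23 and −0.21, the second of which ran from −0.34 without heterozygous library 2 to −0.10 without heterozygous library 3. Of the 12, 1, the matrix gene Fbln2, rose by 1.13 without control library 1 (adjusted p = 0.0107, 8.33% of the list beside 0.543% of all genes), against a change of 1.23 (0.116) with it. That call was lost without heterozygous library 2 (0.0733) or 3 (0.12). In the 6 libraries edgeR called 0 of the meningeal list, with an unadjusted p under 0.05 in 5, while DESeq2 called 3 higher and 1 lower and voom 3 higher.

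Choroid plexus genes marked a single library. The 8 markers summed to 98.9, 27.2 and 1405 CPM in control libraries and 20.8, 64.4 and 31.6 CPM in heterozygous libraries, and Ttr, which encodes transthyretin, gave most of it. Control library 3 was far above every other library. The medians of the list were −1.85 and −2.29, and the second became −0.20 without control library 3 and −3.59 without control library 2. EdgeR called 0 of the 7 tested members, with an unadjusted p under 0.05 in 3 and 1, and DESeq2 called 0 and 1. Leaving out both control libraries 1 and 2, so that control library 3 stood alone, gave 7 calls, all lower. Blood genes had medians of −0.22 and 0.00 and thalamic and hippocampal markers of −0.02 and 0.14, the second of which ran by further library left out from −0.49 (heterozygous library 3) to 0.29 (control library 3) and from −0.04 (control library 2) to 0.21 (control library 3), with 0 called by edgeR or DESeq2 and an unadjusted p under 0.05 in 0 and 1 without control library 1. Among cortical neurons, the 20 excitatory markers had medians of −0.02 and −0.01, and Neurod6, a factor of pyramidal neurons, rose by 0.51 ± 0.09 without control library 1 (adjusted p = 0.0223, 5% of the list beside 0.543% of all genes), against a change of 0.40 (0.346) with it. It had 72.4, 61.9 and 57.2 CPM against 78.6, 81.3 and 93.0 CPM, without overlap, and lost its call without control library 3 (0.136), heterozygous library 2 (0.076) or heterozygous library 3 (0.131). The 14 markers of GABAergic interneurons had medians of −0.13 and 0.11, the second of which turned to −0.01 without control library 3. EdgeR and DESeq2 called 0 of them, with an unadjusted p under 0.05 in 2. Gad1, the enzyme that makes GABA, had 404, 413 and 360 CPM against 382, 354 and 345 CPM, which overlap.

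At the loci of the construct and the disease gene no difference passed the test. Gt(ROSA)26Sor, the transcript of the insertion site, had 41.9, 23.8 and 22.4 CPM in control libraries and 20.7, 22.0 and 28.5 CPM in heterozygous libraries. Control library 1 was the highest, and the change was −0.31 (adjusted p = 0.613) with it and 0.04 (adjusted p = 0.941) without it. The construct itself has no entry among the genes used here, so its level was not measured. Thy1 had 757, 664 and 621 CPM against 637, 677 and 574 CPM, and 3110043O21Rik, the mouse C9orf72 gene, had 24.0, 22.8 and 22.1 CPM against 21.6, 20.0 and 22.6 CPM. Both overlapped between the groups.

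Libraries of spinal cord from mice of that age and those genotypes, counted in the same table, served to ask where the cortex differed. In a fit over 12 libraries, the term for genotype by tissue was called for 3 of 18241 genes (0.0164%), namely Lmtk3 and 2410018L13Rik, with a higher log2 fold change in the cortex, and Ctss, with a lower one. Without cortex control library 1 it was called for 18 of 18607 genes (0.0967%), 8 of them higher in the cortex and 10 lower, and these 18 included the 3. The labels do not say whether a mouse gave both tissues. With library number and genotype as a block in the fit over 12 libraries, the term was called for 0 genes, with an unadjusted p under 0.05 in 876. Lmtk3 changed by 1.38 in cortex and 0.34 in spinal cord, a difference of 1.01 ± 0.14 (adjusted p = 0.0117). For 2410018L13Rik the changes were 2.79 and 0.39, a difference of 2.37 ± 0.29 (adjusted p = 0.00474). Mbd6, Slc7a3, Hist1h1c and Chat also changed more in the cortex, by differences of 1.12 (adjusted p = 0.0463), 1.93 (0.0348), 1.02 (0.0201) and 1.77 (0.0463). Pde1a changed by −0.66 in cortex and 0.09 in spinal cord, a difference of −0.78 (adjusted p = 0.0201). The remaining ones higher in the cortex were Sfi1, a centrosomal gene, and Grin3b, a glutamate receptor subunit with 18 counts in all control libraries and 116 in heterozygous libraries. Drg1 overlaps Sfi1 and Tmem259 overlaps Grin3b, so both are uncertain.

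The 10 genes with a lower change in the cortex were Ctss, C1qa, C1qb, C1qc, Tyrobp, Fcrls, Blnk, Lag3, Serpina3n and Pde1a, and the first 5 are on the list of microglial markers. Here C1qa, C1qb and C1qc encode the chains of complement C1q, Tyrobp an adaptor of microglial receptors and Serpina3n a protease inhibitor of reactive astrocytes. Ctss, which encodes the lysosomal protease cathepsin S, had 76.1, 57.9 and 62.0 CPM in control cortex and 50.6, 45.4 and 48.7 CPM in heterozygous cortex. The heterozygous values were the lower ones there, with a change of −0.31 without control library 1 (adjusted p = 0.15), against 0.67 in the spinal cord (adjusted p = 0.0134). The difference was −1.0 ± 0.12 (adjusted p = 0.00474). C1qa was at −0.03 against 0.84. Of the 14 microglial markers, 6 rose in the spinal cord (0.103% of all genes there were called higher), with a median of 0.65, and the difference between tissues was called for 5 without cortex control library 1.

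**Figure D5:**
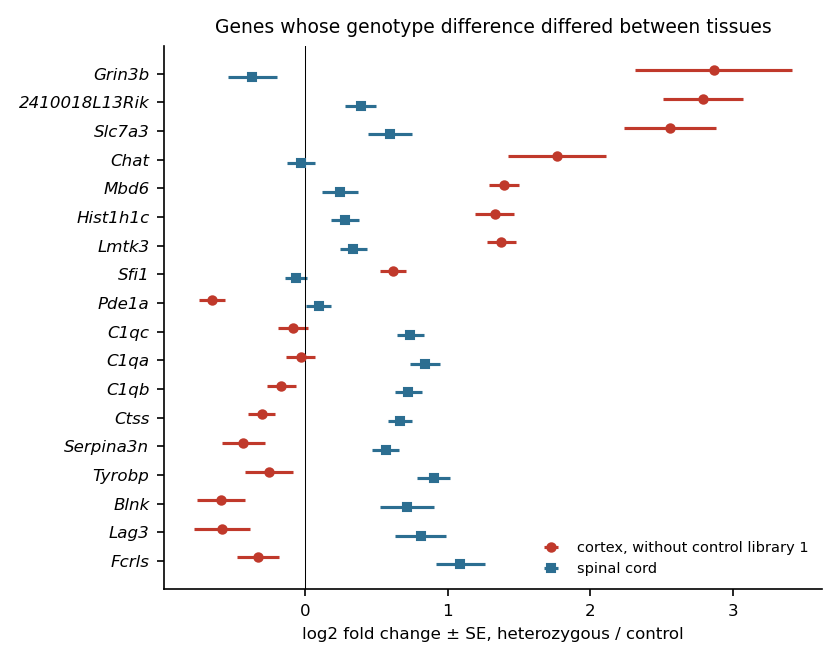
Log2 fold change between heterozygous and control mice with its standard error (horizontal axis) in cortex without control library 1 (red circles) and spinal cord (blue squares) for the 18 genes whose genotype difference differed between tissues. Ctss, C1qa, C1qb, C1qc and Tyrobp lie below 0 in the cortex and above 0 in the spinal cord.

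Of the 93 genes higher in cortex without control library 1, 87 were tested in the spinal cord and 2, Atf4 and Peg10, rose there (2.30%, beside 0.103% of all genes). A change above 0 was seen there in 68 of the 87, beside 51.9% of all genes. Atf4 changed by 0.59 in the spinal cord (adjusted p = 0.0134) and Peg10 by 0.74 (adjusted p = 0.0134). Their difference between tissues was not called. In the cerebellum at 5 months, counted in another table, 83 of the 93 were tested and 17 (20.5%) rose as well, beside 2.37% of all 16481 genes tested there. Among them were Atf4 (0.39), Atf5 (1.07), Asns (0.44), Slc7a1 (0.39), Slc7a3 (1.49) and Stc2 (1.08) of the ATF4 list, of which 14 of 41 tested members rose in the cerebellum, and Mcm6. Also among them was 2410018L13Rik, which rose by 2.39 (adjusted p = 0.0128). The genes Dot1l, Myo15, Shisa9 and Speg fell there. Lmtk3, Mbd6, Kmt2d and Peg10 had changes of 0.02, 0.05, 0.00 and 0.11 in the cerebellum and did not pass the test. Of the 41 lower genes, 0 of 41 tested were called in the spinal cord by edgeR (0.00571% of all genes were called lower there, and 1135 had an unadjusted p under 0.05). A change below 0 was seen there in 30 of the 41, while 51.9% of all genes were above 0. In the cerebellum 6 of 38 (15.8%) fell, beside 2.72% of all genes there. They were Dio2, Rims1, Kif5a, Nat8l, Spag5 and Vwa5b2. Rpl37 rose there. The difference between cortex and cerebellum was not tested, since age and table differ as well.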

How the data were processed

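Whole-tissue RNA from cortex of 3 control and 3 heterozygous mice was sequenced as paired-end reads. Per the submitters' processing notes, reads were trimmed with Trimmomatic 0.30, aligned to mm10 with HISAT2 2.0.1 and counted with HTSeq 0.6.1, and the authors deposited raw counts per gene without normalization. The counting mode and strand setting are not given in the sources used here. Counts were tested in edgeR 4.0.16 (R 4.3.3) with TMM normalization, filterByExpr (minimum count 10, minimum total 15), the robust quasi-likelihood F test and Benjamini-Hochberg adjustment over all tested genes. Standard errors are the size of the log2 fold change over the square root of F. Positions, lengths and GC content came from GENCODE M21, which held 45229 genes (98.2%). As alternatives, DESeq2 1.42.0, limma 3.58.1 voom, an offset for length and GC content (loess span 0.4), other filters, other libraries and a replicate block were run. These steps were checked on simulated counts. With 3 libraries against 3, or 2 controls against 3 without control library 1, p-values set the difference between groups against the spread between these mice.

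The members and lists were chosen with earlier results of these data known, so the 29 lists get counts and medians and no test. The genes selected by rule are those called with 6 libraries, the 8 with the smallest p in each direction without control library 1 among those without overlap, key genes and up to 4 called members of each list, 5 genes of the interaction in each fit and 3 loci. Not every key gene selected is described in the text, so the members shown do not stand for their whole lists. Beyond that rule, and with the values seen, the text names all called members of the ATF4 list, some list members that were not called, and genes called in the interaction or in another tissue. Mars1 and Utp4 were not matched by symbol. Tables and plots used Python 3.11.15, numpy 2.4.6, pandas 2.3.3, scipy 1.17.1 and matplotlib 3.10.9.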

Additional observations from a re-analysis of the deposited data

Results flagged for a closer look

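The effect of genotype differed between cortex and spinal cord, by the test of the interaction without cortex control library 1, in these genes. On the log2 scale the cortex difference minus the spinal cord difference was 1.01 for Lmtk3, 1.12 for Mbd6, 2.37 for 2410018L13Rik, 1.93 for Slc7a3, 1.77 for Chat and 1.02 for Hist1h1c. It was −0.78 for Pde1a, −1.0 for Ctss, −0.92 for C1qb and −0.90 for C1qa. With cortex control library 1 in the fit, Lmtk3, 2410018L13Rik and Ctss were called, and the other 7 were not. With library number and genotype as a block in that fit, 0 genes were called.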

How the results depend on the processing

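The 6 genes higher in 6 libraries remained called under every alternative for those libraries except the leaving out of heterozygous libraries 1 (5 shared), 2 and 3 (0). Their number of 6 became 92 with DESeq2, 75 without a filter on low counts, 75 in 1 fit of 12 libraries and 120 with limma voom, and ranged from 0 to 93 when each library was left out. The number lower, 0 with edgeR and 1929 genes of either direction at an unadjusted p under 0.05, became 46, 33, 29 and 58 under the same alternatives in that order, 2 with the offset for transcript length and GC content, and 0 to 41 by library left out. Other size factors, non-robust dispersions and no fold threshold left both numbers as they were. Without control library 1, the 93 higher became 133 with DESeq2, 337 without a filter, 112 with the offset and 8 to 82 by a second library left out, and the 41 lower became 120 with DESeq2, 311 without a filter, 198 with the offset and 4 to 64. Where only 1 control was left, it was assumed to vary like the heterozygous libraries. The 3 genes of the interaction became 18 without cortex control library 1, 17 with the offset as well (chosen after seeing the data), 51 with DESeq2, 20 without a filter and 9 with the offset. The 9 with the offset held 2 of the 3 genes, and the 18, 17, 51 and 20 held all 3. List members called, 3 in all, became 36 without control library 1, 6 with the offset and 46 with DESeq2, and the 36 became 55 with the offset, 63 with DESeq2 and 5 to 31 by library left out. The motif count of 10 became 13 with the looser motif. The causes were not tested.

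In cortex, libraries of equal number did not deviate together across genotypes (r of −0.129, −0.00887 and 0.0354 for numbers 1 to 3). Between cortex and spinal cord, r was −0.0804, −0.00644 and −0.0064 in controls and 0.0674, 0.0548 and 0.0558 in heterozygous mice, where each cortex library, unlike those of controls, correlated best with its own number. None of these r was over 0.1, so the numbers were not taken as pairs, though a shared mouse is not excluded by this. With the number as a replicate block, 8 genes were higher and 0 lower in 6 libraries (1604 at an unadjusted p under 0.05), and 120 and 45 without control library 1, with 74 of the 93 and 22 of the 41 among them. With number and genotype as a replicate block, edgeR called 0 genes in the interaction and 876 had an unadjusted p under 0.05.

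Across the named genes, 1234 results kept their direction and side of the threshold, 182 passed it newly, 124 lost it and 28 changed sign, all of them in genes not called in the 6 libraries. They turned with a library left out, where the log2 fold change ranged from −0.47 to 0.0431 in Gt(ROSA)26Sor, −0.38 to 0.032 in Gap43, −0.0164 to 0.38 in Ddit3, −0.30 to 0.0401 in Gfap, −0.16 to 0.048 in Npm1, −0.29 to 0.0202 in Hspa5, −1.04 to 0.21 in Fos, −0.36 to 0.15 in Bbc3, −0.15 to 0.0639 in Slc17a7, −0.17 to 0.0474 in Xbp1, −0.49 to 0.16 in Egr1 and −0.0663 to 0.0529 in Ncl. With voom it was 0.00213 in Gap43, 0.0139 in Npm1, 0.13 in Fos, 0.13 in Bbc3, 0.0217 in Xbp1, 0.0909 in Egr1 and 0.0312 in Ncl. Depth limits low genes such as Fev and Asf1b, and with 3 mice per group a p that misses the threshold does not show that values did not differ. In simulated data with a spread of its own for each gene, more than the nominal share of calls was false in both cortex fits, though not in the interaction.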
